A study of Homo sapiens with 12 samples.

Results

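CRABP2, ALDH1A1 and 7 further genes of retinoid handling and response were followed in IOSE80 cells, an immortalised line of normal ovarian epithelium, after 28 days of chemical exposure. The 9 genes are the cellular retinoic acid-binding proteins CRABP1 and CRABP2, the enzymes ALDH1A1 and RDH11, the retinoic acid receptors RARA, RARB and RARG, and the retinoid X receptors RXRA and RXRB. Each had exactly 1 of the 30574 loci in the deposited tables. CRABP2 and ALDH1A1 were chosen because they were lower with 2500 nM bisphenol A than with DMSO in these libraries, so their values in that contrast are given as a description, and the other 7 were added as genes of the same pathway. The groups were bisphenol A (BPA, a monomer of polycarbonate plastics with weak oestrogenic activity) at 0.25 nM (n = 3) or 2500 nM (n = 3), E2, the usual short name of estradiol (n = 2), and 0.1% DMSO (n = 3). DMSO is taken here as the vehicle, since the labels name no solvent for the other groups. E2 replicate 3 was not analysed here, and the sources used here do not state the E2 dose. The labels do not state whether replicates came from separate cultures, and p-values therefore reflect the variation among these libraries alone, which may be technical.

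Vitamin A enters this pathway as retinol. Retinol dehydrogenases and reductases interconvert retinol and retinaldehyde, and ALDH1A enzymes oxidise retinaldehyde to retinoic acid. CRABP2 carries retinoic acid to the nucleus, where heterodimers of a retinoic acid receptor and a retinoid X receptor bind DNA and control target genes, while CYP26 enzymes break retinoic acid down. In the ovary, ALDH1A1 is used as a marker of progenitor-like surface epithelial cells.

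Promoter sequences of 3 of the genes are shown because retinoid receptors act through DNA hexamers near their target genes, and the genes differ in holding them. RefSeq windows on GRCh38.p14 covered 250 bases before to 50 bases after each annotated start, with 16 windows for the 9 genes. They were searched on both strands for the retinoid receptor hexamer AGGTCA, for its variant GGGTCA, for the further variant AGTTCA and for the variant with the letters GGTTCA, for direct repeats of these hexamers (5, 1 or 2 bases apart), and for CCAAT and TATAAA. In the CRABP2 window (chr1:156705735-156706034, minus strand) the capitals mark the hexamer GGTTCA, which starts at position -249 from the start site. In the ALDH1A1 window (chr9:72953004-72953303, minus strand) they mark the letters CCAAT, which start at position -74. In the window of 1 of the RARB starts (chr3:25428013-25428312, plus strand) they mark GGTTCA and, downstream of it, AGTTCA, a direct repeat spaced by 5 bases that starts at position -53.
CRABP2: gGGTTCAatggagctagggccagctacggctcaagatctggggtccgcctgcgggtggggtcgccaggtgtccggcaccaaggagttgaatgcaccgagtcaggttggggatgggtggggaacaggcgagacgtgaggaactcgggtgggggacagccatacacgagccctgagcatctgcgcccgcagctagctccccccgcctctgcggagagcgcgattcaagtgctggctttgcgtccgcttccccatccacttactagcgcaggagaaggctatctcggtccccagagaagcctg
ALDH1A1: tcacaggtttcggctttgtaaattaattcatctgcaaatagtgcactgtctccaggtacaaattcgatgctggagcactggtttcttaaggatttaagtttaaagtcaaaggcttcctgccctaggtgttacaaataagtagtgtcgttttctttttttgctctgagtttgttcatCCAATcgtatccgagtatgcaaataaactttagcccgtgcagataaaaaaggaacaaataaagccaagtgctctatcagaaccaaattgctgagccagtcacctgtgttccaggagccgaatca
RARB: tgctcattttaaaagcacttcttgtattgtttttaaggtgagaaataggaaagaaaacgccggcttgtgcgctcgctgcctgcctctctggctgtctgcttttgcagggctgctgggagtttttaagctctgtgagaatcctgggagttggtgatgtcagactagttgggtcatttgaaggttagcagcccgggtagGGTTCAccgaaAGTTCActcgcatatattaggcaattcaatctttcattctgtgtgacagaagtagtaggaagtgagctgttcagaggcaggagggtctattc
The RARB repeat was the only direct repeat of these spacings found in the 16 windows, while 0.09% of all 35116 RefSeq windows held one with this spacing. RARB is a textbook target of retinoic acid through such an element. A repeat with a spacing of 1 base was in 0.13% of all windows and one with a spacing of 2 bases in 0.04%. At least 1 hexamer was found in 6 of the 16 windows and in 38.6% of all windows, so the CRABP2 match is a common one. CCAAT was in 34.6% of all windows and TATAAA in 11.5%, and no match of either overlapped a hexamer in the 16 windows. The CRABP2 window was 64.0% G and C and the ALDH1A1 window 40.3%. A match is a description of the letters and not a site of binding.

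Levels are FPKM, fragments scaled to transcript length and to mapped fragments, as the authors deposited them. Differences were tested with limma on log2(FPKM + 1), a scale that understates the change of low genes, over the 12182 loci with at least 1 FPKM in at least 2 libraries, and a locus was called at a Benjamini-Hochberg adjusted p under 0.05. The libraries summed to between 206719 and 213663 FPKM, with 21223 to 23696 loci above 0. Mitochondrial loci took 12.62% to 12.66% of the FPKM with BPA 0.25 nM, 12.94% to 13.62% with BPA 2500 nM, 12.26% to 14.0% with E2 and 13.63% to 14.31% with DMSO. Of 14 markers of ovarian surface epithelium, KRT8, KRT18 and NR2F2 averaged at least 1 FPKM, 7 averaged under 0.1 FPKM, and CDH1 and WT1 reached no more than 0.02 and 0.01 FPKM in any library. Of the granulosa markers, FOXL2 was at 5.36 to 7.7 FPKM, AMH averaged 0.778 FPKM and CYP19A1 0.003 FPKM. Of the stromal markers, VIM was at 623.53 to 827.91 FPKM, while COL1A1, COL1A2 and DCN averaged 0.421, 0.018 and 0.004 FPKM. The leukocyte genes PTPRC and LYZ did not exceed 0.01 and 0.06 FPKM, CD68 could be read only at a locus joined with EIF4A1 and other genes, and the endothelial gene CDH5 did not exceed 0.01 FPKM. The summed surface markers lay at 27.13 to 27.48 FPKM with BPA 2500 nM against 25.96 to 33.0 FPKM with DMSO, and KRT18 made up most of that sum. The 5 stromal markers without PDGFRA, whose locus is joined with FIP1L1, summed to 649.41 to 845.87 FPKM with BPA 2500 nM against 682.6 to 859.81 FPKM with DMSO, nearly all of it VIM. COL3A1, a fibrillar collagen at a locus that also names MIR3606, was at 23.34, 22.97 and 23.77 FPKM with BPA 2500 nM against 31.4, 30.3 and 32.07 FPKM with DMSO (log2 change -0.40 ± 0.05 SE, adjusted p = 0.00591). It was the only marker called against DMSO, and its part in the results below was not tested. In bulk RNA, fewer cells of a type and less RNA per cell cannot be told apart.

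CRABP2, the carrier of retinoic acid, was lower in every library of BPA 0.25 nM, BPA 2500 nM and E2 than in every DMSO library. Its locus (MSTRG.1447, chr1:156699606-156705816 on the minus strand of GRCh38) averaged 5.22 FPKM over the 11 libraries. It had 5.73, 5.25 and 5.4 FPKM with BPA 0.25 nM, 3.9, 4.06 and 4.3 FPKM with BPA 2500 nM, and 5.29 and 4.34 FPKM with E2, against 7.03, 5.98 and 6.16 FPKM with DMSO. The BPA 2500 nM libraries were the lowest and did not overlap any other group, the E2 libraries overlapped those of BPA 0.25 nM, and DMSO replicate 1 was the highest. The means were 5.46 ± 0.246 FPKM with BPA 0.25 nM, 4.09 ± 0.201 FPKM with BPA 2500 nM and 4.82 ± 0.672 FPKM with E2, against 6.39 ± 0.562 FPKM with DMSO (SD).

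Against DMSO, the log2 change of CRABP2 with BPA 2500 nM was -0.54 ± 0.08 (SE; 95% confidence interval -0.71 to -0.36), a ratio of mean FPKM of 0.64. This is the contrast by which the gene was chosen. With E2 the change was -0.35 ± 0.09 (-0.54 to -0.15), a ratio of 0.754, and CRABP2 was not called (adjusted p = 0.0998, limma). With BPA 0.25 nM it was -0.19 ± 0.08 (-0.37 to -0.02; adjusted p = 0.518, limma). Both of these comparisons use the DMSO libraries by which the gene was chosen, so they are not independent of that choice. The 2 BPA groups differed by -0.34 ± 0.08 (-0.52 to -0.17) and BPA 2500 nM and E2 by -0.19 ± 0.09 (-0.38 to 0.01). No p-value is given for either and nothing is read from the intervals, because both use the BPA 2500 nM libraries of the choice. CRABP2 was the only one of the 7 tested retinoid genes with all 8 treated libraries below the 3 DMSO libraries, a pattern found in 3.03% of all tested loci. The BPA 2500 nM and DMSO libraries in this pattern are those by which the gene was chosen, so nothing is read from that share. The call with BPA 2500 nM was lost when DMSO replicate 1, BPA 2500 nM replicate 1 or BPA 2500 nM replicate 2 was left out, with log2 changes between -0.58 and -0.48 over all such fits.

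CRABP1 (ENSG00000166426, chr15:78340353-78348225, plus strand), the paralogue that holds retinoic acid in the cytoplasm, was close to 0 everywhere. It was listed at 0.03 FPKM in BPA 2500 nM replicate 2 and at 0.05 FPKM in DMSO replicate 2, and at 0 in the other 9 libraries. It was too low to test, so CRABP2 supplied nearly all FPKM of the pair in each library.

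**Figure D1:**
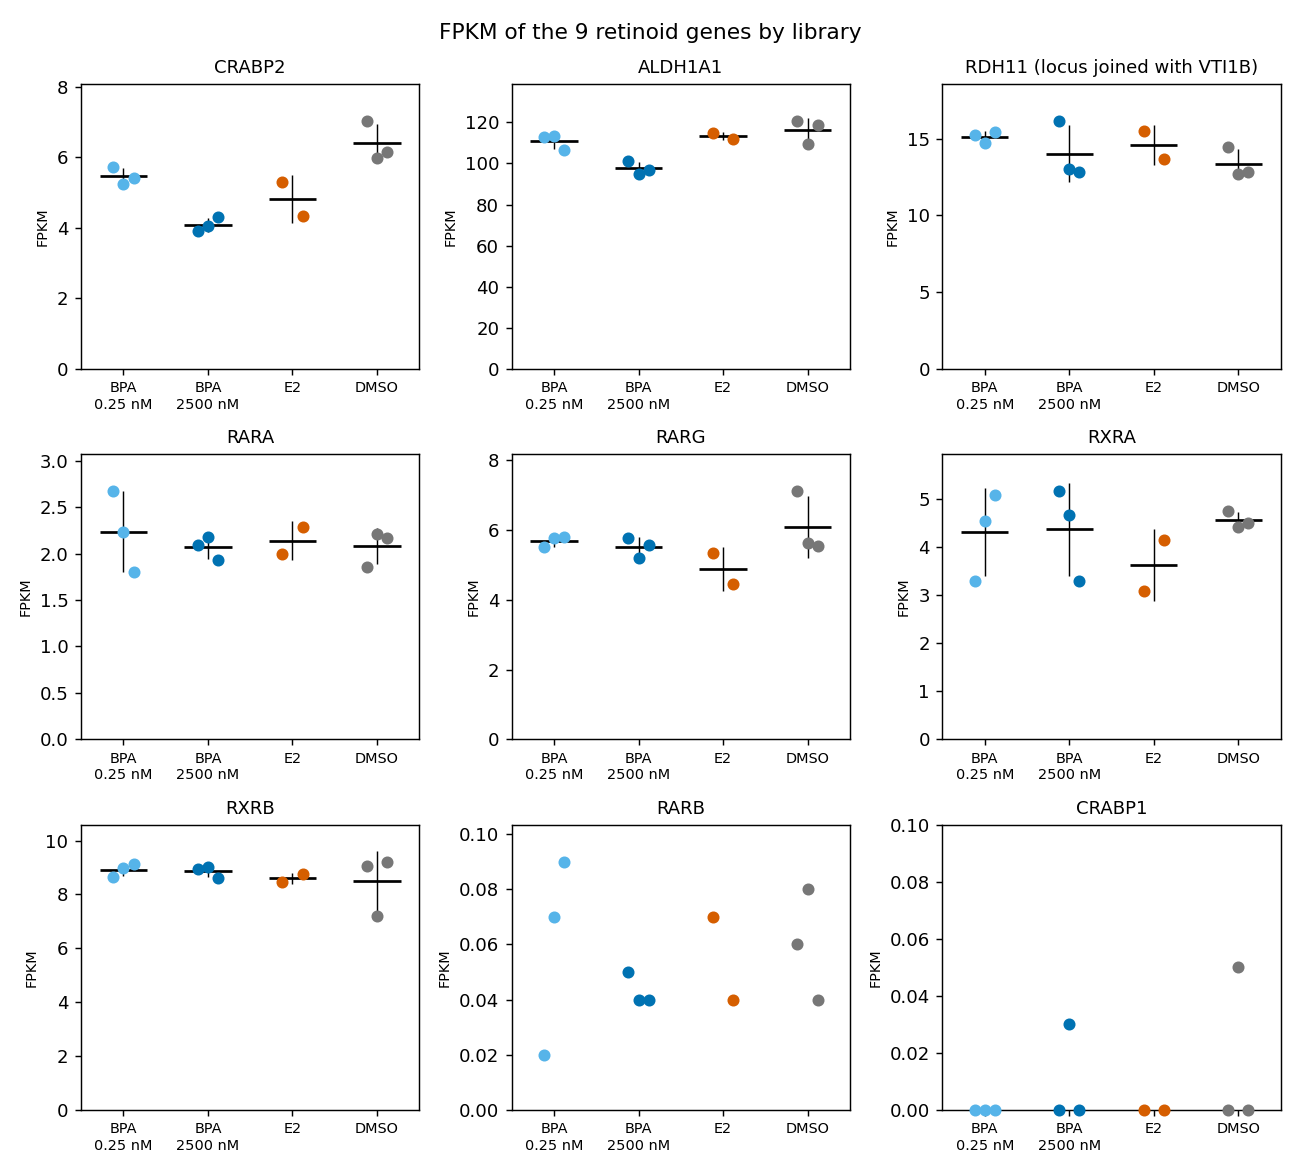
FPKM of the 9 retinoid genes in each library (points) for BPA 0.25 nM, BPA 2500 nM, E2 and DMSO; horizontal lines are group means and vertical lines ± 1 SD, left out for RARB and CRABP1, which are near 0. CRABP2 in the treated libraries spans 3.9 to 5.73 FPKM against 5.98 to 7.03 FPKM with DMSO, and the axes start at 0.

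ALDH1A1, which makes retinoic acid from retinaldehyde, was the most abundant of the 9 genes. Its mean of 109 FPKM placed it at rank 220 of 30574 loci, against rank 6179 for CRABP2. The locus (MSTRG.18195, chr9:72900671-73080442, minus strand) reaches well past the RefSeq start site. It had 112.71, 113.42 and 106.56 FPKM with BPA 0.25 nM, 101.13, 94.98 and 96.64 FPKM with BPA 2500 nM, and 114.93 and 111.93 FPKM with E2, against 120.77, 109.44 and 118.61 FPKM with DMSO. The 3 BPA 2500 nM libraries were below every other library, while BPA 0.25 nM, E2 and DMSO overlapped one another.

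For BPA 2500 nM against DMSO the log2 change of ALDH1A1 was -0.25 ± 0.05 (SE; interval -0.36 to -0.14), a ratio of mean FPKM of 0.839. With BPA 0.25 nM it was -0.07 ± 0.05 (adjusted p = 0.722, limma), and with E2 -0.03 ± 0.05 (interval -0.16 to 0.09; adjusted p = 0.823, limma). BPA 2500 nM differed from BPA 0.25 nM by -0.18 ± 0.05 and from E2 by -0.22 ± 0.05, again without a p-value. ALDH1A1 and CRABP2 were both chosen for a lower level with BPA 2500 nM than with DMSO, so their sharing it is no result. With E2, compared with the same DMSO libraries, their changes were -0.03 for ALDH1A1 and -0.35 for CRABP2. Whether these 2 changes differ was not tested. The call of ALDH1A1 with BPA 2500 nM remained in 3 of the 11 fits that leave out 1 library, those without DMSO replicate 2, E2 replicate 1 or E2 replicate 2.

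RDH11, a retinal reductase, could be read only as part of a locus joined with VTI1B and AL049779 (MSTRG.5496, chr14:67647085-67695793, minus strand), so its values are uncertain. That locus had 15.24, 14.73 and 15.4 FPKM with BPA 0.25 nM, 16.16, 13.05 and 12.82 FPKM with BPA 2500 nM, and 15.52 and 13.64 FPKM with E2, against 14.46, 12.69 and 12.85 FPKM with DMSO. The BPA 0.25 nM libraries lay above all DMSO libraries and the others overlapped DMSO. None of the differences was called: the log2 change was 0.17 ± 0.09 with BPA 0.25 nM (interval -0.03 to 0.37; adjusted p = 0.6, limma) and 0.12 ± 0.10 with E2 (adjusted p = 0.626, limma), and it was 0.06 ± 0.09 with BPA 2500 nM.

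All receptors but RARB were measured above 1 FPKM in every library. RXRB was the most abundant, followed by RARG, RXRA and RARA, while RARB stayed between 0.02 and 0.09 FPKM and was too low to test. The order ALDH1A1, RDH11 locus, RXRB, RARG, CRABP2, RXRA, RARA, RARB and CRABP1 held between neighbours in all 11 libraries with 2 exceptions. RARG exceeded CRABP2 in 8 of 11 libraries, and CRABP2 exceeded RXRA in 9 of 11. Genes on the opposite strand are annotated at the loci of RXRB, RARA, RARB, ALDH1A1, RDH11, CRABP1 and CRABP2. The sources used here do not say whether the libraries kept strand, so reads of those neighbours cannot be told apart.

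RARG, a retinoic acid receptor prominent in epithelia (MSTRG.4226, chr12:53210567-53232980, minus strand), had 5.5, 5.76 and 5.8 FPKM with BPA 0.25 nM, 5.78, 5.21 and 5.56 FPKM with BPA 2500 nM, and 5.33 and 4.44 FPKM with E2, against 7.11, 5.63 and 5.53 FPKM with DMSO. Both E2 libraries were below all DMSO libraries, and the BPA groups overlapped DMSO. The log2 change was -0.27 ± 0.10 with E2 (interval -0.49 to -0.04; adjusted p = 0.256, limma), -0.12 ± 0.09 with BPA 2500 nM and -0.08 ± 0.09 with BPA 0.25 nM (adjusted p = 0.837, limma), so RARG was not called.

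RXRA, an obligate partner of the retinoic acid receptors (MSTRG.18541, chr9:134317098-134440585, plus strand), had 3.29, 4.53 and 5.08 FPKM with BPA 0.25 nM, 5.15, 4.66 and 3.28 FPKM with BPA 2500 nM, and 3.09 and 4.14 FPKM with E2, against 4.75, 4.41 and 4.49 FPKM with DMSO. The E2 libraries were again below DMSO, but both BPA groups spread widely on either side of it. Its log2 change with E2 was -0.28 ± 0.18, with an interval of -0.68 to 0.13 that includes 0 (adjusted p = 0.523, limma).

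RXRB, the other retinoid X receptor (MSTRG.15788, chr6:33193588-33200688, minus strand), had 8.65, 8.97 and 9.13 FPKM with BPA 0.25 nM, 8.94, 9.02 and 8.61 FPKM with BPA 2500 nM, and 8.46 and 8.74 FPKM with E2, against 9.05, 7.18 and 9.21 FPKM with DMSO. RARA (ENSG00000131759, chr17:40309180-40357643, plus strand), the receptor expressed in most tissues, had 2.67, 2.23 and 1.8 FPKM with BPA 0.25 nM, 2.09, 2.18 and 1.93 FPKM with BPA 2500 nM, and 1.99 and 2.29 FPKM with E2, against 1.86, 2.21 and 2.17 FPKM with DMSO. All groups of both genes overlapped, and their log2 changes against DMSO lay between -0.01 and 0.07. RARB (MSTRG.12892, chr3:25174332-25597932, plus strand), which is both a receptor and a target of retinoic acid, had 0.02, 0.07 and 0.09 FPKM with BPA 0.25 nM, 0.05, 0.04 and 0.04 FPKM with BPA 2500 nM, and 0.07 and 0.04 FPKM with E2, against 0.06, 0.08 and 0.04 FPKM with DMSO.

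As shares, RARG made up 65.6% to 78.7% of the summed FPKM of the 3 retinoic acid receptors, and RXRB 61.9% to 73.2% of the sum of RXRA and RXRB. RARG's share averaged 71.37 ± 4.1% in the BPA 0.25 nM libraries, 72.3 ± 1.95% in those of BPA 2500 nM and 68.85 ± 4.6% in those of E2, against 73.73 ± 4.3% with DMSO (SD). RXRB's share averaged 67.7 ± 4.2% in the BPA 0.25 nM libraries, 67.23 ± 4.65% in those of BPA 2500 nM and 70.55 ± 3.75% in those of E2, against 64.9 ± 2.72% with DMSO. The ranges of RARG's share overlapped in all groups. RXRB's share was 67.9% to 73.2% in the E2 libraries, above the 61.9% to 67.2% of DMSO, and the BPA groups overlapped both; this difference was not tested. The retinoid X receptors summed to 1.46 to 1.9 times the retinoic acid receptors.

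**Figure D2:**
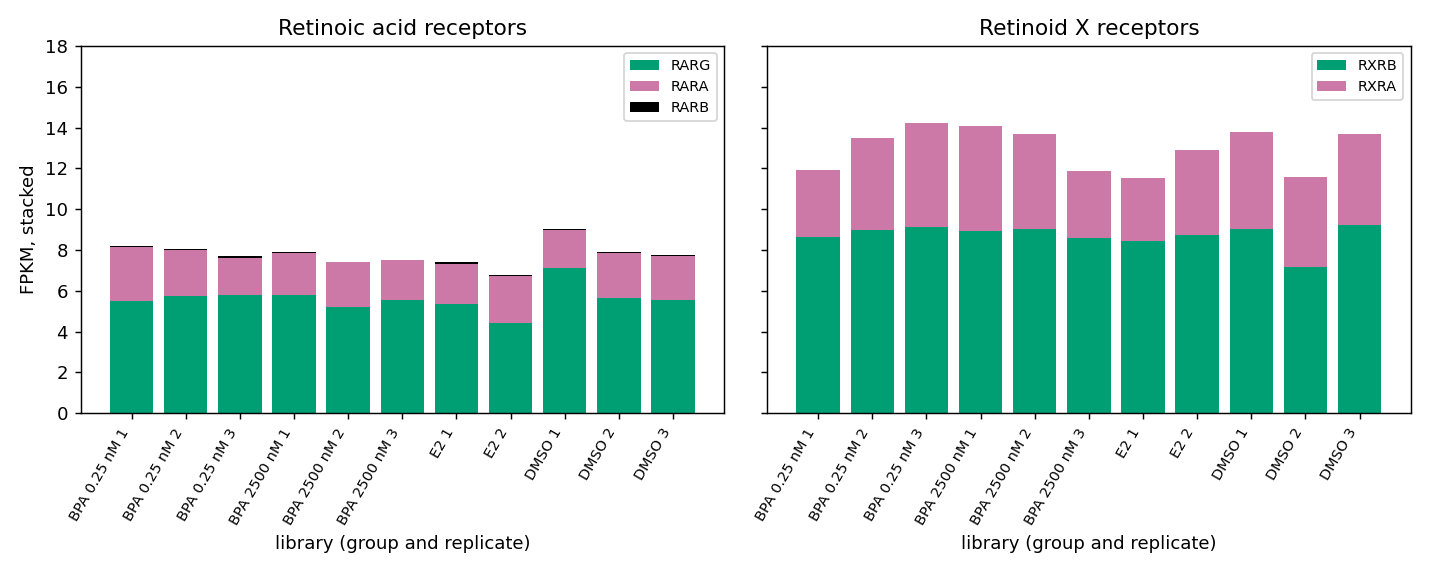
Stacked FPKM of the retinoic acid receptors (left) and retinoid X receptors (right) in each of the 11 libraries, ordered as BPA 0.25 nM, BPA 2500 nM, E2 and DMSO. RARG and RXRB form the larger share of each bar in every library (at least 65.6% and 61.9%), and RARB is barely visible.

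Counted together, 7 of the 9 genes were tested, and 2 were called lower with BPA 2500 nM, CRABP2 and ALDH1A1, where 1.3% of all tested loci were called and 0.895% were called lower. That split of all loci (109 lower, 49 higher) turned to 61 lower and 102 higher after rescaling by the median of ratios. Since that contrast chose them, nothing is read from this count. With BPA 0.25 nM 0 of 7 were called, where 0.0164% of all loci were, and with E2 0 of 7, where 0.419% were. BPA 2500 nM against BPA 0.25 nM and against E2 also called 0 of 7, where 0.0657% and 0.041% of all loci were called. At an unadjusted p under 0.05 there were 1 of 7 with BPA 0.25 nM (9.11% of all loci) and 2 of 7 with E2 (15.4%). BPA 2500 nM gave 2 of 7 against BPA 0.25 nM (7.81% of all loci) and 1 of 7 against E2 (9.01%). These comparisons reuse the libraries of the choice, so nothing is read from them. Without overlap, 3 of 7 were lower with E2 than with DMSO (CRABP2, RARG and RXRA), against 16.2% of all loci, and 0 were higher (12.2% of all loci). With BPA 0.25 nM, 1 of 7 was lower (CRABP2, against 8.05% of all loci) and 1 higher (the joined RDH11 locus, against 9.01%). BPA 2500 nM was lower without overlap in 2 of 7 against BPA 0.25 nM (12% of all loci) and in 2 of 7 against E2 (13.4%), CRABP2 and ALDH1A1 each time, and higher in 0 (4.66% and 10.3% of all loci). The median log2 change of the 7 was -0.07 for either BPA dose and -0.03 for E2, beside 0.001, -0.027 and -0.007 over all tested loci. The comparisons with DMSO share the DMSO libraries, and CRABP2 and ALDH1A1 were chosen by these and the BPA 2500 nM libraries. Nothing is therefore read from the counts above that include CRABP2 or ALDH1A1, or from the medians.

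**Figure D3:**
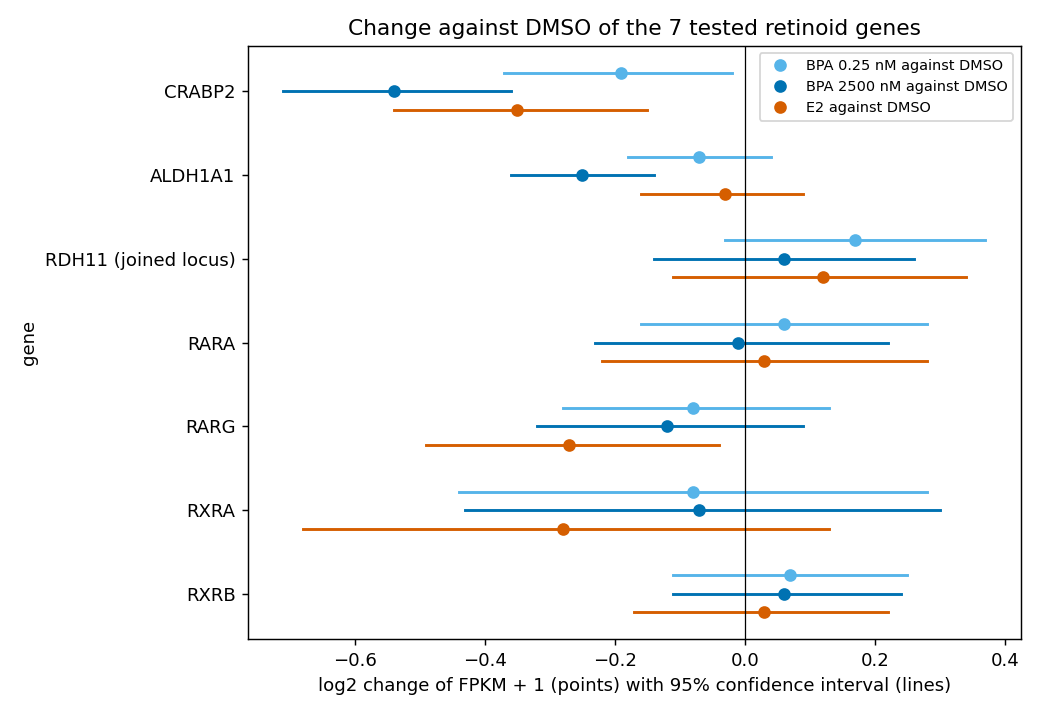
Log2 change of FPKM + 1 against DMSO (horizontal axis) of the 7 tested genes, with points for the fitted change and lines for its 95% confidence interval, coloured by BPA 0.25 nM, BPA 2500 nM and E2. The CRABP2 intervals lie below 0 in all 3 comparisons (the nearest to 0 is -0.37 to -0.02), and the ALDH1A1 interval only with BPA 2500 nM. The intervals are not adjusted for the number of loci tested. BPA 2500 nM against DMSO chose both genes and the other comparisons use its DMSO libraries, so nothing is read from these intervals.

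Other genes of retinoid metabolism and response formed a list of 44, of which 37 had a locus, 26 were tested and 11 were too low. RBP4, STRA6, LRAT, RXRG, STRA8 and CDX1 were not analysed here. None of the 26 was called in any of the 5 comparisons by limma. At an unadjusted p under 0.05 there were 2 of 26 with BPA 0.25 nM (9.11% of all loci), 7 with BPA 2500 nM (17.2%) and 5 with E2 (15.4%). The list had a median log2 change of -0.02 for the lower BPA dose, -0.03 for the higher dose and -0.09 for E2. With E2, 10 of 26 were lower than DMSO without overlap and 3 higher (16.2% and 12.2% of all loci). With BPA 0.25 nM 4 were lower and 0 higher (8.05% and 9.01%), and with BPA 2500 nM 7 were lower and 1 higher (17.1% and 9.54%). In each role, the 2 genes with the smallest p for BPA 2500 nM against DMSO are described here.

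Among the enzymes of synthesis, ALDH1A3 was the other ALDH1A gene that could be tested, and ALDH1A2 reached no more than 0.02 FPKM. ALDH1A3 had 3.51, 3.55 and 3.2 FPKM with BPA 0.25 nM, 3.88, 3.47 and 3.31 FPKM with BPA 2500 nM, and 3.55 and 3.47 FPKM with E2, against 4.3, 4.32 and 4.15 FPKM with DMSO. All 8 treated libraries were below DMSO, at similar levels in each group. The log2 changes of -0.25 ± 0.06 (adjusted p = 0.332), -0.21 ± 0.06 (adjusted p = 0.121) and -0.22 ± 0.07 (adjusted p = 0.154, limma) were not called. The ratio of ALDH1A1 to ALDH1A3 was 31.9 to 33.3 for BPA 0.25 nM, 26.1 to 29.2 for BPA 2500 nM and 32.3 to 32.4 for E2, against 25.3 to 28.6 with DMSO. It was higher than DMSO in each library of BPA 0.25 nM and E2, and BPA 2500 nM overlapped DMSO. In those 2 groups ALDH1A1 had log2 changes of -0.07 and -0.03, beside -0.25 and -0.22 for ALDH1A3. Because ALDH1A1 was chosen by the BPA 2500 nM and DMSO libraries, nothing is read from the ratio, which was not tested. RDH10, the main retinol dehydrogenase of embryonic tissue, averaged 48.1 ± 1.67 FPKM with BPA 0.25 nM, 50.02 ± 0.506 FPKM with BPA 2500 nM and 53.7 ± 4.95 FPKM with E2, against 45.9 ± 1.32 FPKM with DMSO. Its log2 changes of 0.12 ± 0.05 with BPA 2500 nM (adjusted p = 0.274) and 0.22 ± 0.06 with E2 (adjusted p = 0.119, limma) were not called. Without E2 replicate 1 the change with E2 was 0.31, which rests on the 1 E2 library left, at 57.16 FPKM against 50.16 FPKM in replicate 1.

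Of the enzymes that break retinoic acid down, CYP26A1, itself a textbook target of retinoic acid, had 1.12, 1.19 and 1.14 FPKM with BPA 0.25 nM, 1.03, 0.72 and 1.25 FPKM with BPA 2500 nM, and 1.12 and 1.19 FPKM with E2, against 1.53, 1.38 and 1.73 FPKM with DMSO. Each treated library was below each DMSO library. The log2 changes were -0.24 ± 0.10 (adjusted p = 0.524), -0.36 ± 0.10 (adjusted p = 0.12) and -0.24 ± 0.11 (adjusted p = 0.348, limma), and were not called at these low levels. CYP26B1 varied from 0.5 to 2.86 FPKM between libraries, and CYP26C1 reached no more than 0.01 FPKM. CYP26A1, ALDH1A3 and THRA were the 3 of 26 listed genes with all treated libraries below DMSO (3.03% of all loci), and 0 had all treated libraries above it (2.34% of all loci).

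THRA, a thyroid hormone receptor that pairs with retinoid X receptors, had log2 changes of -0.11 ± 0.09 for BPA 0.25 nM, -0.15 ± 0.09 for BPA 2500 nM and -0.29 ± 0.11 for E2 (adjusted p = 0.235, limma). PPARD, another such partner that responds to fatty acids, had -0.04 ± 0.06, -0.17 ± 0.06 and -0.29 ± 0.07 (adjusted p = 0.0771 with E2, limma). The coactivator NCOA3 averaged 7.23 ± 0.493 FPKM with BPA 2500 nM against 8.97 ± 0.423 FPKM with DMSO, a log2 change of -0.28 ± 0.06 (adjusted p = 0.0726, limma), without overlap. The corepressor NCOR1 had a log2 change of -0.09 ± 0.05 with BPA 2500 nM. Of the targets, RARRES3, named for its induction by retinoids, had -0.17 ± 0.06 with BPA 2500 nM and -0.22 ± 0.07 with E2 (adjusted p = 0.211 and 0.163, limma). The homeobox gene HOXB4, at a locus with several names, had -0.09 ± 0.07 with BPA 2500 nM. The targets RARRES1, RARRES2 and TGM2 stayed at or below 0.25 FPKM in every library and were too low to test.

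**Figure D4:**
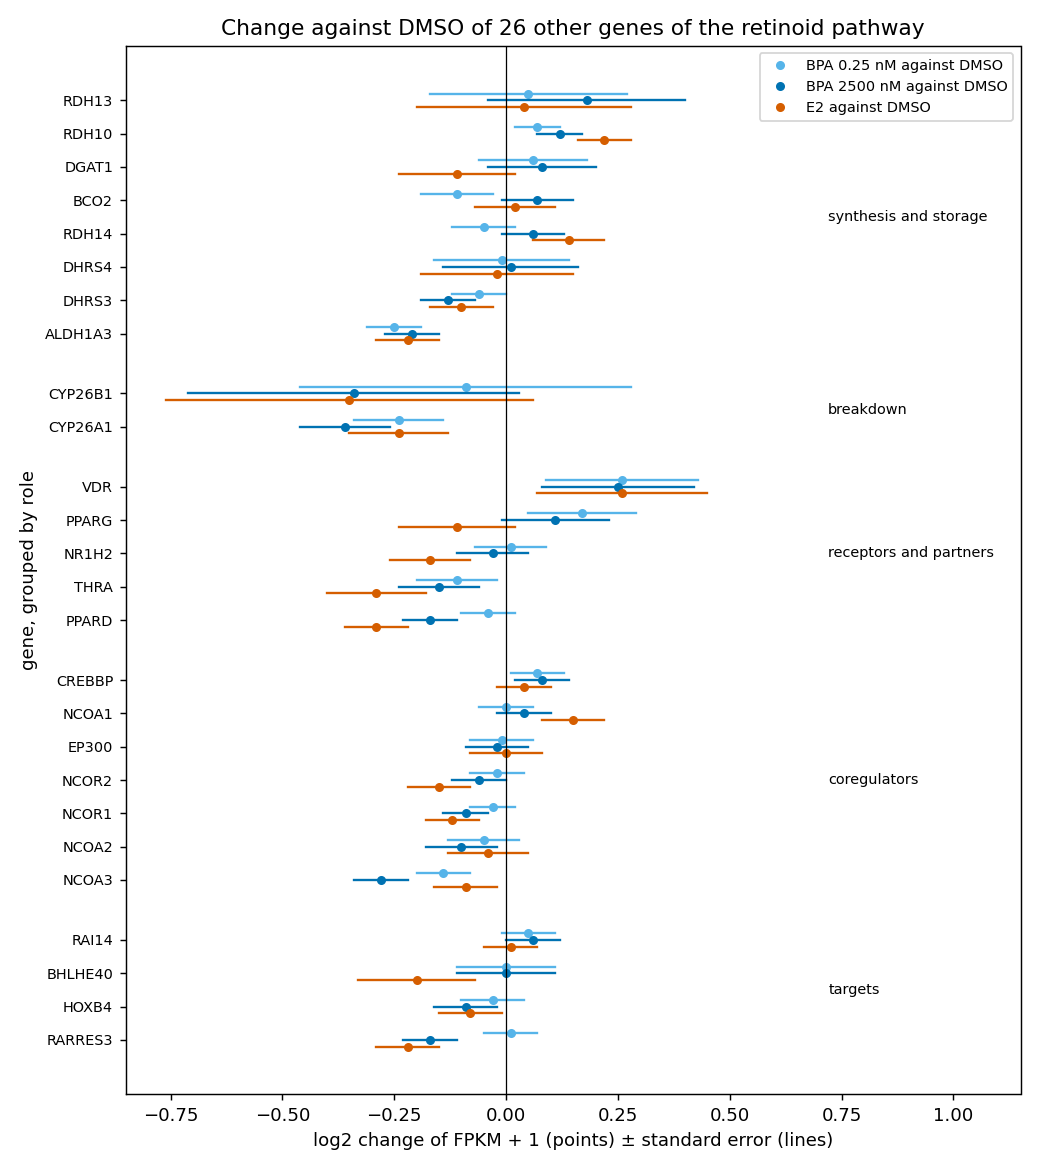
Log2 change of FPKM + 1 against DMSO (points) ± standard error (lines) of 26 further retinoid genes, grouped by role, for BPA 0.25 nM, BPA 2500 nM and E2; BCO2, DGAT1, HOXB4 and RDH14 are at loci with several names, and RDH13 at a short locus on the strand opposite to the gene. Most points lie within 0.3 of 0; CYP26A1 and ALDH1A3 are below 0 in all 3 comparisons and none of the genes was called.

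The genes whose pattern over the 11 libraries was most like that of CRABP2 were found among 8388 tested loci that name 1 gene, by the root mean square difference of log2(FPKM + 1) after centring each gene on its mean. For CRABP2, whose own root mean square around its mean was 0.2186, the nearest were MGAT3 (0.0804), HSD17B14 (0.0805), H1F0 (0.0825), STC2 (0.0858) and CNN1 (0.0889). MGAT3 adds a bisecting sugar to N-glycans, HSD17B14 is a short-chain dehydrogenase, H1F0 a linker histone, STC2 a secreted glycoprotein and CNN1 an actin-binding protein. MGAT3 had 2.21, 2.24 and 2.11 FPKM with BPA 0.25 nM, 1.61, 1.63 and 1.62 FPKM with BPA 2500 nM, and 1.88 and 1.66 FPKM with E2, against 2.64, 2.77 and 2.69 FPKM with DMSO. H1F0 had 56.31, 52.65 and 52.23 FPKM with BPA 0.25 nM, 45.6, 45.69 and 44.28 FPKM with BPA 2500 nM, and 49.76 and 40.76 FPKM with E2, against 63.22, 55.88 and 57.44 FPKM with DMSO. In both genes each BPA 2500 nM library was below each DMSO library, and E2 replicate 2 lay near the BPA 2500 nM libraries in MGAT3 and below them in H1F0. These genes were picked for that likeness, so no test of them is given.

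For ALDH1A1, whose root mean square around its mean was 0.1085, the nearest were RMI2 (0.0483), ATP1B1 (0.0513), TBX15 (0.0535), PPP3CA (0.054) and EIF2S2 (0.0552). RMI2 belongs to a DNA-unwinding complex, ATP1B1 is a subunit of the sodium pump, TBX15 a transcription factor, PPP3CA the catalytic subunit of calcineurin, and EIF2S2 a translation initiation factor. ATP1B1 had 36.5, 35.32 and 36.53 FPKM with BPA 0.25 nM, 31.9, 31.98 and 31.18 FPKM with BPA 2500 nM, and 34.7 and 36.61 FPKM with E2, against 39.26, 34.57 and 36.53 FPKM with DMSO. In ATP1B1 the BPA 2500 nM libraries were the lowest and the other groups overlapped, whereas TBX15 and PPP3CA were also below every DMSO library with BPA 0.25 nM and E2. No gene was on both lists of 5.

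**Figure D5:**
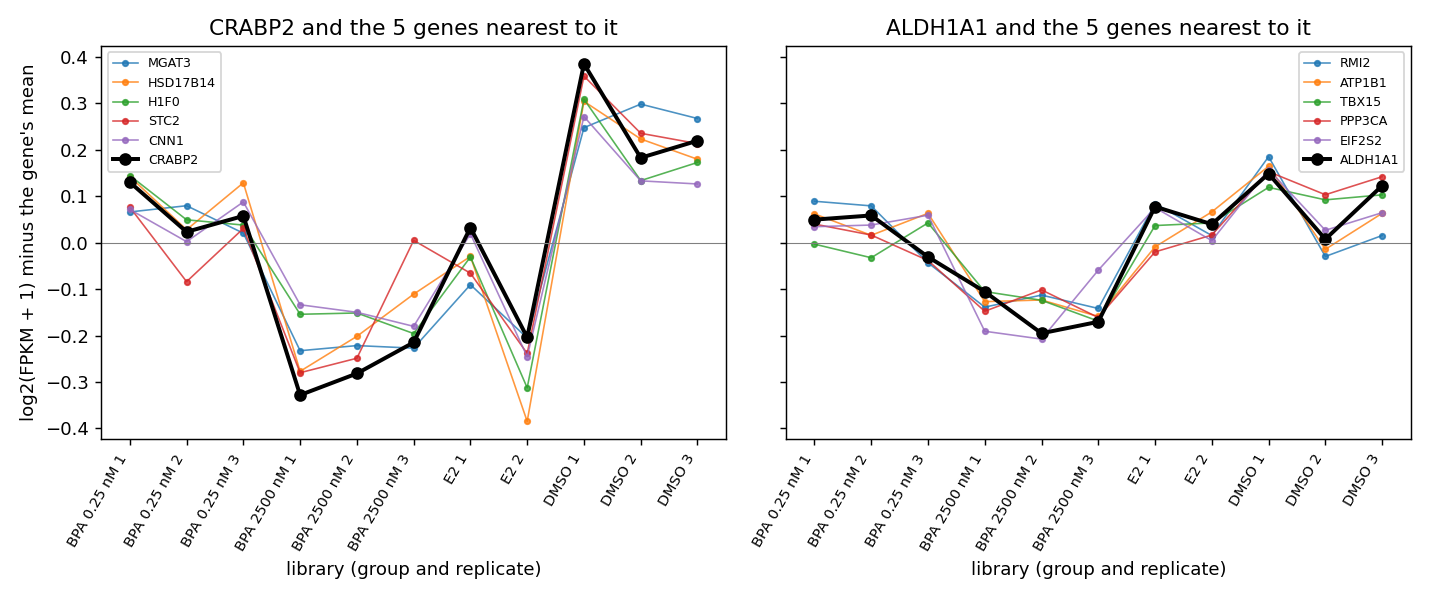
Log2(FPKM + 1) minus each gene's mean (vertical axis) in the 11 libraries, for CRABP2 (left, black) and ALDH1A1 (right, black) with the 5 nearest genes of each in colour. CRABP2 and 4 of its 5 nearest genes are highest in the 3 DMSO libraries (H1F0 in BPA 0.25 nM replicate 1 lies above DMSO replicate 2), and ALDH1A1 and its 5 nearest genes are lowest in the 3 BPA 2500 nM libraries.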

How the data were processed

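Per the labels' protocols, Trizol-extracted RNA of IOSE80 cells was read on an Illumina NovaSeq. The deposited tables of the authors hold FPKM values, 1 for each locus in each library. The submitters' processing notes name HISAT, UMI-tools, StringTie, edgeR and the build hg19, with no settings. Coordinates in the files match GRCh38 instead: 74.8% of 14123 Ensembl loci shared with GENCODE 29 had identical bounds there. Read depth is unknown, because the deposited values are FPKM and not read counts. Precision therefore rests on the spread between libraries (median standard error 0.084 for BPA 2500 nM against DMSO, 0.094 for E2 against DMSO).

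Using limma 3.58.1 (R 4.3.3, statmod 1.5.0), log2(FPKM + 1) of the 11 libraries was modelled by group means, with trend and robust settings (residual degrees of freedom 7, median prior 2.4). The two-sided p of each of 5 comparisons was adjusted over 12182 loci (Benjamini-Hochberg). Python 3.11.15 with numpy 2.4.6, pandas 2.3.3 and matplotlib 3.10.9 made tables and plots.

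The genes, the pathway list and the markers were chosen with earlier results of these data known. The text names all 9 genes, in each role the 2 pathway genes with the smallest p for BPA 2500 nM against DMSO, any pathway gene called, the untested ALDH1A and CYP26 genes, and the 5 genes most like CRABP2 and ALDH1A1. H1F0, MGAT3 and ATP1B1 were taken as examples of these after their values were seen, as were the other low pathway genes. Alternatives were a pseudocount of 0.1, no filter, a mean of at least 5 FPKM, rescaling by the median of ratios, no trend or robust setting, only the groups compared, a replicate block, and leaving out each library. Some genes of the pathway list are not reported here by name.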

Additional observations from a re-analysis of the deposited data

How the results depend on the processing

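The lower level of CRABP2 and ALDH1A1 with BPA 2500 nM kept its direction under all alternatives. That contrast chose both genes and the alternatives reuse its libraries, so nothing is read from the kept direction. CRABP2 had a log2 change of -0.63 with a pseudocount of 0.1 and -0.49 after rescaling. The call of CRABP2 was lost with no filter and with only the groups compared (both -0.54). That of ALDH1A1 was lost with no filter, without trend or robust settings, with only the groups compared and with the replicate block (all -0.25), and after rescaling (-0.20). Accordingly, the count of the 7 genes called with BPA 2500 nM was 0 with no filter, 1 after rescaling, 1 without trend or robust settings, 0 with only the groups compared, 1 with the replicate block, and 0 to 2 without single libraries. ALDH1A1 had log2 changes from -0.29 to -0.22 without single libraries. Of the 26 pathway genes, none was called with E2 in the fits that kept both E2 libraries. Without E2 replicate 1, RDH10 had a log2 change of 0.31 with E2, which rests on 1 E2 library. Over all loci, 158 were called with BPA 2500 nM, but 163 after rescaling, 39 with no filter, 102 at a mean of at least 5 FPKM, 13 with only the groups compared, 38 with the block and 32 to 251 without single libraries. For E2 the 51 calls became 33 with no filter, 2 with only the groups compared, 5 with the block and 7 to 189 without single libraries. For BPA 0.25 nM the 2 calls became 0 at a mean of at least 5 FPKM, 1 without trend or robust settings, 9 with only the groups compared, 1 with the block and 0 to 9 without single libraries. BPA 2500 nM against BPA 0.25 nM gave 8 calls, but 2 after rescaling, 3 without trend or robust settings, 3 with only the groups compared, 3 with the block and 2 to 10 without single libraries. Against E2 it gave 5, but 19 with no filter, 3 with only the groups compared and 4 to 56 without single libraries. The causes were not tested. Changes near 0 reversed sign: for RARA 0.03 after rescaling (BPA 2500 nM against DMSO), -0.01 with the block (E2 against DMSO) and 0.00 with the block (BPA 2500 nM against E2), and for RXRB 0.03 after rescaling (BPA 2500 nM against BPA 0.25 nM). Without single libraries, log2 changes with a reversal spanned, for BPA 0.25 nM against DMSO, -0.03 to 0.16 (RARA), -0.13 to 0.02 (RARG), -0.19 to 0.06 (RXRA) and -0.03 to 0.13 (RXRB). For BPA 2500 nM against DMSO they spanned -0.04 to 0.12 (RDH11), -0.06 to 0.03 (RARA), -0.17 to 0.09 (RXRA) and -0.04 to 0.12 (RXRB), and for E2 against DMSO -0.04 to 0.1 (RARA) and -0.08 to 0.08 (RXRB). BPA 2500 nM against BPA 0.25 nM gave -0.17 to 0.03 (RARA), -0.13 to 0.17 (RXRA) and -0.03 to 0.01 (RXRB), and BPA 2500 nM against E2 gave -0.16 to 0.03 (RDH11) and -0.1 to 0.04 (RARA). Of the alternative log2 changes of the 7 genes, 577 kept direction and status as called or not, 18 lost the call and 25 reversed. Only CRABP2 and ALDH1A1 with BPA 2500 nM against DMSO had a call to lose, so all 18 losses are theirs. Most of the 577 were not called in either fit and do not speak to the stability of a call. The labels do not say whether replicate numbers pair the libraries. Of 15 same-numbered pairs, 1 had a correlation of deviations over 0.1 (range -0.117 to 0.164). This cannot settle the question, since a low correlation does not exclude pairing and the deviations of the 2 E2 libraries mirror each other. Summing several loci was planned for the 9 genes alone and gave no value, since each of them had 1 locus. Without 1 E2 library, the remaining one is assumed to vary like the other groups. Depth is unknown, so precision rests on the 2 or 3 libraries of a group.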
